A study of Arabidopsis thaliana with 32 samples.

Results

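A set of 104 Arabidopsis thaliana genes had more transcript in roots of the opt3-2 mutant than in roots of an EYFP control line, both with full iron supply. In EYFP roots their mean after transfer to iron-deficient medium was at most 1.1 times that on control medium. They were chosen by their values from the 33607 loci measured. A member had at least 1.3 times as much transcript in the lower opt3-2 library as in the higher EYFP library, a ratio of group means of at least 1.5, a mean of at least 3 RPKM in opt3-2, and a ratio of deficient over control medium of at most 1.1 in EYFP roots. RPKM, a read count scaled for the length of a transcript and the size of a library, allows levels of different genes to be set side by side. Of 17202 loci with at least 3 RPKM in opt3-2 roots, 319 met the first 3 conditions, and 215 of these were above the deficiency ceiling. The members are therefore set apart from the iron uptake genes, which are high both in opt3-2 and under deficiency. The contrast of opt3-2 with EYFP roots on control medium and the response of EYFP roots chose the members, so their values there are a description with no test.

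Plants take up iron at the root surface, move it to the shoot in the xylem as a citrate complex, and return a signal of shoot iron status to the root through the phloem. OPT3 is a phloem transporter that loads iron for redistribution, and opt3 mutants keep the root uptake system active although leaves hold ample iron. Surplus iron is sequestered by vacuolar iron transporter-like (VTL) proteins and by ferritin, whose genes are known to be repressed when iron is short.

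RNA sequencing covered roots and whole rosettes of 4 lines on 2 media, in 16 groups of 2 libraries. The EYFP OE line carries 35spro:EYFP (a yellow fluorescent protein under a constitutive promoter) and served as the control. IMA1 OE and IMA3 OE express the open reading frames of IMA1 (At1g47400) and IMA3 (At2g30766), IRON MAN peptides that promote the iron deficiency response, from the same 35S promoter and vector. The opt3-2 line is the T-DNA insertion line Salk_021168. Seedlings, 25 to a plate, grew for 10 days on full ES medium under continuous light and were harvested 72 hours after transfer to full medium or to medium with ferrozine, an iron chelator, and without iron. The treatment protocol gives 100 µM ferrozine and the series design 300 µM, and this was not resolved. Rosette samples were taken as rosettes from their titles, although 1 other field names roots. The labels do not say how many independent transformants each line stands for, nor whether replicates came from separate cultures, so a p-value reflects the spread of the libraries alone, which may be technical.

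OPT3 was at 14.1 and 9.72 RPKM in EYFP control roots and at 2.8 and 3.55 RPKM in opt3-2. The inserted IMA1 construct was at no less than 197 RPKM in the 8 IMA1 OE libraries and the IMA3 construct at no less than 26.7 RPKM in the 8 IMA3 OE libraries, and both were at most 0.26 RPKM in all other libraries. The IMA3 gene itself was above EYFP in IMA3 OE control roots (28.4 and 26.1 RPKM against 0.83 and 0.33 RPKM) but not in the other IMA3 OE groups, as in control rosettes at 14.7 and 12.6 RPKM against 48.1 and 9.9 RPKM in EYFP. Genes of root endodermis summed to between 203.6 and 276.7 RPKM in roots and at most 4.42 RPKM in rosettes. Transcripts of 6 root hair genes summed to 151.5 and 142.1 RPKM in EYFP control roots and 186.5 and 178.4 RPKM in opt3-2, and 5 of the 6 had ratios of 1.16 to 1.33. Transcripts of 13 green-tissue genes, none of them at 0 in every root library, summed to between 480.5 and 836.1 RPKM in EYFP roots, between 191.8 and 565.3 RPKM in opt3-2 roots and between 377.2 and 807.9 RPKM in IMA roots, against at least 40299 RPKM in rosettes. Their median ratio of opt3-2 over EYFP in control roots was 0.608, and the part of root hair and green-tissue transcripts in the root results was not tested. In bulk tissue, fewer cells of a type and less RNA per cell cannot be told apart.

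Ratios within the set ran from 1.50 to 38.6, with a median of 1.84; 14 members had a ratio of at least 3 and 62 a ratio under 2. Over all 17489 genes with at least 3 RPKM in either group, 2.32% had a ratio of at least 1.5, and the rule required it of members. The most abundant member in opt3-2 roots was at 4123 RPKM and the least abundant at 3.34 RPKM, around a median of 16 RPKM. At the edge of the replicate condition, AT1G30720 (1.302), UMAMIT29 (1.305) and AT1G02570 (1.310) were just inside, and AT4G25940 (1.298), BGLU24 (1.297) and ATERDJ3A (1.295) just outside. At the deficiency ceiling, NRT1.8, CYP71B13 and DJ1A had ratios of 1.1, 1.099 and 1.094, and the excluded AT2G44380, AT1G17860 and AT5G12880 had 1.103, 1.105 and 1.110.

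**Figure D1:**
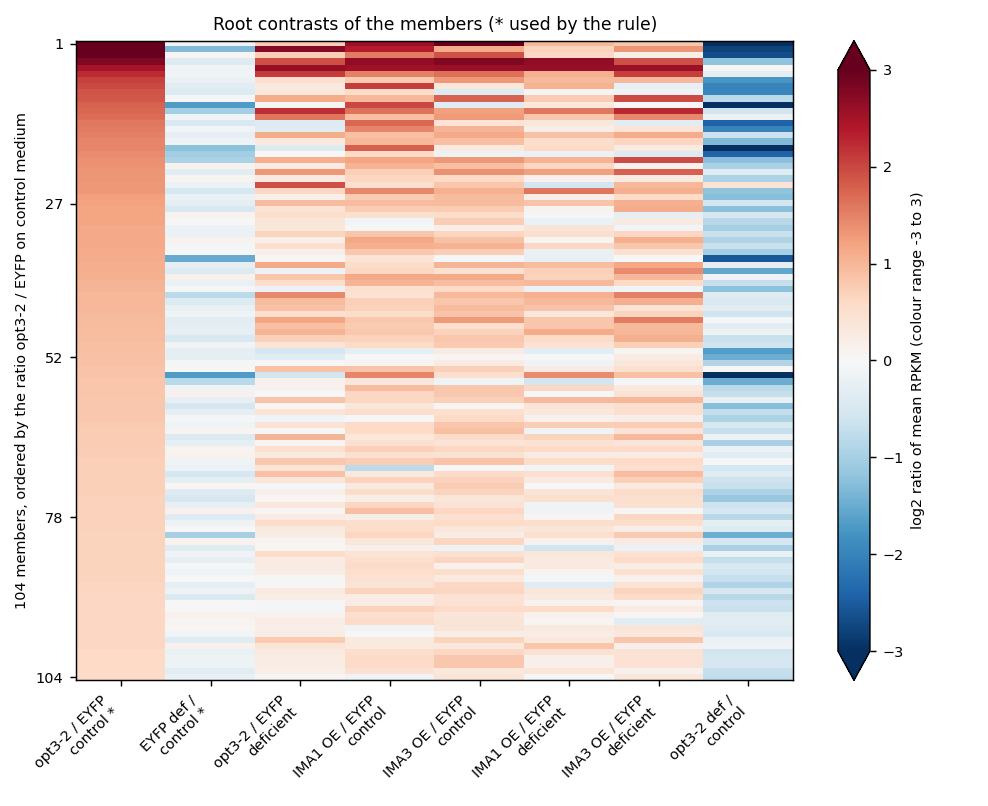
Colour map of log2 ratios of mean RPKM for the 104 members (rows, ordered by their ratio of opt3-2 over EYFP in control roots) in 8 root contrasts (columns, those used for choosing marked with an asterisk). Red is higher and blue lower, and the last column, opt3-2 under deficiency over opt3-2 on control medium, is blue for most members, with 62 at or below a ratio of 1/1.5 (background 2.29%). This column carries no asterisk, but the rule chose high opt3-2 control libraries, so its lower values are in part fixed by the choice.

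Genes of iron storage were among the members. Of 7 expressed genes on a list of iron storage genes, 4 were members (VTL1, VTL2, VTL5 and the ferritin gene FER1), while FER2, FER3 and FER4 had opt3-2 over EYFP ratios of 1.06, 1.18 and 0.959. The 3 VTL genes encode proteins of the vacuolar iron transporter family that remove iron from the cytosol. VTL2 was at 4.94 and 11.4 RPKM in EYFP control roots and 27.5 and 28.2 RPKM in opt3-2, and on deficient medium at 2.4 and 2.42 RPKM in EYFP and 3.27 and 1.65 RPKM in opt3-2. It was thus high in opt3-2 on control medium and low in every library without iron, where both lines overlapped. VTL1 was at 14.7 and 34.8 RPKM in EYFP and 60.8 and 75.2 RPKM in opt3-2 on control medium, and at 13.3 and 7.17 RPKM and 8.67 and 6.49 RPKM on deficient medium. The EYFP control replicates of both genes differed by more than 2-fold, and the opt3-2 libraries were above both, as the rule required. VTL5 was at 46.5 and 58.1 RPKM in EYFP and 220.1 and 189 RPKM in opt3-2 on control medium, and at 53.4 and 29.6 RPKM and 65.9 and 35.4 RPKM on deficient medium. Its ratio under deficiency in EYFP roots, 0.807, was nearer to 1 than those of VTL1 (0.424) and VTL2 (0.306).

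The IMA lines differed in these genes. In IMA1 OE control roots VTL1 was at 84.3 and 85.7 RPKM, VTL2 at 33.5 and 32.8 RPKM and VTL5 at 278 and 160.1 RPKM. In IMA3 OE control roots VTL1 was at 28.5 and 32.1 RPKM, VTL2 at 6.04 and 6.69 RPKM and VTL5 at 67.4 and 66.1 RPKM. IMA1 OE therefore stood above opt3-2 for VTL1 and VTL2, while the IMA3 OE libraries lay between the EYFP replicates for both genes; the levels of different lines come from different deposited tables, and this difference between the IMA lines was not tested. FER1, which encodes a plastid ferritin that stores iron, was at 75.8 and 129 in EYFP, 258 and 306 in IMA1 OE, 142 and 147 in IMA3 OE and 184 and 186 RPKM in opt3-2 on control medium. On deficient medium FER1 was at 38.7 and 23.8 in EYFP, 87.2 and 80.7 in IMA1 OE, 59.4 and 49.9 in IMA3 OE and 23.5 and 18.25 RPKM in opt3-2. The order of FER1 on deficient medium placed opt3-2 lowest, with both libraries below both EYFP libraries, and IMA1 OE highest.

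VTL1 and VTL2 share sequence around their transcription start, which is shown because both genes have the same pattern over lines and media. The windows run from 250 bases before to 50 bases after the annotated start, from the RefSeq TAIR10.1 assembly, at chr1:7404078-7404377 (plus strand) for VTL1, chr1:28828993-28829292 (plus strand) for VTL2 and chr3:9174148-9174447 (plus strand) for VTL5. Capitals mark exact stretches of at least 12 bases that VTL1 and VTL2 have in common.
VTL1: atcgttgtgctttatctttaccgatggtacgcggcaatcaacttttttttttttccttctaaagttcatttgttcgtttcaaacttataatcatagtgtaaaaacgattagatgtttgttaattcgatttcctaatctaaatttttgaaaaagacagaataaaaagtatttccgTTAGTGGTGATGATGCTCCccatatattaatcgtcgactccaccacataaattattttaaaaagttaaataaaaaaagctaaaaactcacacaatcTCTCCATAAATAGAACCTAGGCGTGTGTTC
VTL2: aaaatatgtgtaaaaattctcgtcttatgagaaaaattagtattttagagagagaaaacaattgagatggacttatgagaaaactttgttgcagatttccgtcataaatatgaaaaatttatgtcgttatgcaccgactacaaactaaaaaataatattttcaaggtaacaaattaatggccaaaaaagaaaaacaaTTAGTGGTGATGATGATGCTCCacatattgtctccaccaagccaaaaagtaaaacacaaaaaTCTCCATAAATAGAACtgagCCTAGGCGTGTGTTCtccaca
VTL5: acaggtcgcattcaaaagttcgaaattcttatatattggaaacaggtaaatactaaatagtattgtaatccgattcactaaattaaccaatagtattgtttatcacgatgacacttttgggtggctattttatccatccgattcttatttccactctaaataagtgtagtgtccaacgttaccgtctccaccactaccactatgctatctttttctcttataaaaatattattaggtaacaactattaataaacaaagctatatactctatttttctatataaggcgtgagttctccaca
VTL5 held none of these stretches in exact form. The last bases of its window were nearly the same as those of VTL2, at the same place after the start. They covered most of the last stretch of VTL2, with a mismatch inside it. A search for exact stretches of at least 12 bases passes over this likeness. TTAGTGGTGATGATG, 76 bases before the start in VTL1 and 53 before it in VTL2, occurred on either strand in 4 of 27443 windows of the same kind. TCTCCATAAATAGAAC was in 2 windows, those of VTL1 and VTL2. CCTAGGCGTGTGTTC, which starts at base 36 after the start of VTL1 and base 30 of VTL2, was in 3 windows, the last being that of AT3G43660, another VTL gene. The coding sequences of VTL1 and AT3G43660 matched at 86.8% of aligned bases, and AT3G43660 was at most 0.09 RPKM in the 4 EYFP and opt3-2 control root libraries. Shared letters are a description and show no binding or control.

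Other metal transporters followed. FRD3, a MATE family transporter that releases citrate into the xylem for iron transport, was the 1 member on a list of 27 genes of iron uptake and regulation. Of these, 21 had an opt3-2 over EYFP ratio of at least 1.5, and those other than FRD3 were left out by the deficiency ceiling, such as the iron importer gene IRT1, whose deficient over control ratio in EYFP roots was 49.6. FRD3 was at 14.5 and 20.6 in EYFP, 65.1 and 50.4 in IMA1 OE, 23.6 and 23.2 in IMA3 OE and 56.8 and 49 RPKM in opt3-2 on control medium. On deficient medium it was at 12.7 and 12.3 RPKM in EYFP and 10.7 and 8.26 RPKM in opt3-2, with both opt3-2 libraries below both EYFP libraries. This order was found for 3 of 104 members on deficient medium. The opposite order on control medium was required by the rule. Among 16 genes of zinc transport and chelation, ZIP1 and ZIP4, which encode ZIP family zinc transporters, were members. ZIP4 was at 10.8 and 12.5 RPKM in EYFP and 18.3 and 23.3 RPKM in opt3-2 on control medium, and at 5.8 and 7.2 RPKM and 6.18 and 8.05 RPKM on deficient medium. ZIP1 was at 7.85 and 8.8 RPKM in EYFP and 13.4 and 13.1 RPKM in opt3-2 on control medium, above 8.72 and 9.68 RPKM in IMA1 OE and 7.4 and 7.63 RPKM in IMA3 OE. ZIP1 and ZIP4 thus had their highest control-medium values in opt3-2.

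**Figure D2:**
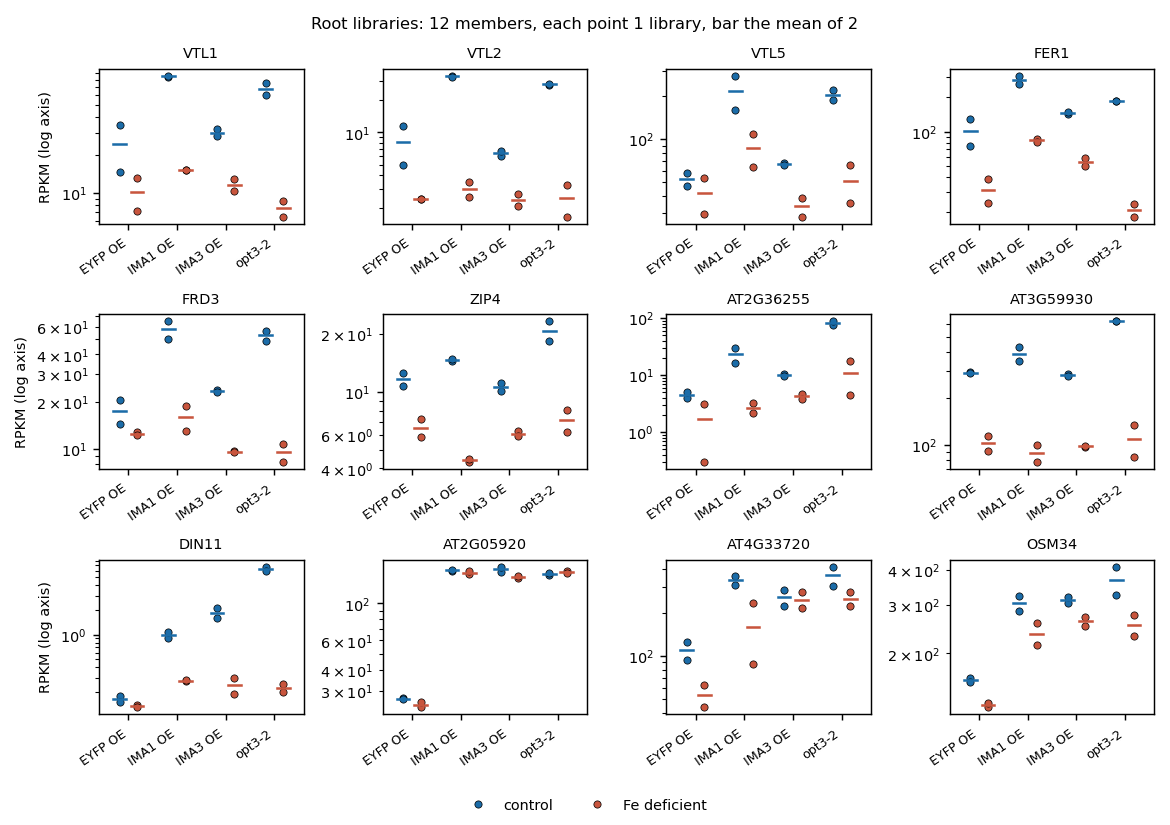
RPKM (log axis) of 12 members in all 16 root libraries, by line (x axis) and medium (colour), with 1 point for each library and a bar at the mean of the group. VTL1, VTL2, FRD3 and AT3G59930 are low in all lines on deficient medium, whereas AT2G05920 is high in the 12 libraries of the other lines on both media.

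Genes of small cysteine-rich secreted proteins were among the members. Of 49 expressed genes annotated as defensin-like or cysteine-rich, 7 (14.3%) were members, beside 104 of 17202 (0.605%) over all expressed loci. The annotation joins unlike proteins: 4 of the 7 are defensin-like, and AT4G33720, AT4G07820 and AT2G19970 belong to the CAP superfamily. AT2G36255, a defensin-like gene on chromosome 2, was at 3.96 and 5.08 in EYFP, 29.6 and 16.4 in IMA1 OE, 10.5 and 9.51 in IMA3 OE and 76.5 and 88 RPKM in opt3-2 on control medium, the second largest ratio of the set (18.19). On deficient medium it was at 0.3 and 3.13 RPKM in EYFP and 4.49 and 17.56 RPKM in opt3-2. It was highest in opt3-2 with iron, and both opt3-2 libraries without iron were below both with it. AT1G34047, another defensin-like gene, was at 8.56 and 12.2 RPKM in EYFP and 30.2 and 46.2 RPKM in opt3-2 on control medium, with IMA3 OE at 7.78 and 7.99 RPKM below both EYFP libraries.

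AT3G59930 and AT5G33355 encode near-identical defensin-like proteins: their coding sequences matched at 99.6% of bases, so the reads of one may be counted for the other and their values are not separate evidence. AT3G59930 was at 296 and 289.7 RPKM in EYFP and 629.5 and 628 RPKM in opt3-2 on control medium, and at 91 and 115 RPKM and 83 and 134 RPKM on deficient medium. AT5G33355 was at 189.6 and 192 RPKM and 504 and 510.4 RPKM on control medium, and at 63.1 and 120.1 RPKM and 71.2 and 112 RPKM on deficient medium. In both genes the opt3-2 libraries exceeded the EYFP libraries on control medium, as the rule required, and overlapped them on deficient medium. Their start regions are shown because the likeness of these genes extends upstream of the coding sequence, at chr3:22140271-22140570 (minus strand) and chr5:12599000-12599299 (plus strand) of TAIR10.1, with capitals for exact shared stretches of at least 12 bases.
AT3G59930: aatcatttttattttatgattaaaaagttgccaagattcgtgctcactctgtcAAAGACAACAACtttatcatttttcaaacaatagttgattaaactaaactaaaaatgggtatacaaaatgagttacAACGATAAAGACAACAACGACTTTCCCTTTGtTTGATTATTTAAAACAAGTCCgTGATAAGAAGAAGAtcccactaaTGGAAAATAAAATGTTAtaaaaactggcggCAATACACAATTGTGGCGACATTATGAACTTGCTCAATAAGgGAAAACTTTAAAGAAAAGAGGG
AT5G33355: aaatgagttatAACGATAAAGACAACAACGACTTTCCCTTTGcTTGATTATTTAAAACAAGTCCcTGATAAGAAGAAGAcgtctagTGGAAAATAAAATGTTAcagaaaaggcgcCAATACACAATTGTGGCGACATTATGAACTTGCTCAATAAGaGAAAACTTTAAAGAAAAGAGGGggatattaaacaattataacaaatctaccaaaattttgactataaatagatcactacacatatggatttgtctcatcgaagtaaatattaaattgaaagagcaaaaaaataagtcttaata
The stretches covered 158 and 146 bases of the 300-base windows, the longest being 41 bases, and they lay farther upstream of the annotated start in AT5G33355 than in AT3G59930. The first of them, AAAGACAACAAC, was present in 15 of 27443 windows, and 5 of the 7 were present in these 2 only.

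Several other members encode secreted proteins, which were put together here from the members themselves and not from a list. AT4G33720, a CAP protein of the pathogenesis-related 1 superfamily, was at 93.6 and 124 in EYFP, 311 and 357 in IMA1 OE, 222 and 288 in IMA3 OE and 308 and 417 RPKM in opt3-2 on control medium. On deficient medium it was at 43.9 and 62.7 RPKM in EYFP and 221 and 276 RPKM in opt3-2, without overlap. That order was also found for 15.9% of genes with at least 3 RPKM in either group, and on control medium the rule required it. OSM34, an osmotin of the pathogenesis-related 5 family, was at 163 and 158 RPKM in EYFP and 325 and 411 RPKM in opt3-2 on control medium, and at 128 and 132 RPKM and 231 and 275 RPKM on deficient medium. PR4, a chitin-binding pathogenesis-related protein, was at 202 and 223 RPKM in EYFP and 342 and 406 RPKM in opt3-2 on control medium. ChiC, a chitinase, was at 61.9 and 84.2 RPKM and 144 and 146 RPKM there, and AT4G16260, a secreted glycosyl hydrolase, at 197 and 223 RPKM and 395 and 521 RPKM. The rule required both EYFP libraries to be below both opt3-2 libraries on control medium for every member, and the ratios of these genes lay between 1.76 and 3.32. The extensin gene EXT4, for a structural cell wall glycoprotein, was at 299.7 and 281 RPKM in EYFP and 432 and 488 RPKM in opt3-2, and the glycine-rich protein gene AT2G05510 at 389 and 281 RPKM and 784 and 580.4 RPKM.

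Lipid transfer protein genes occurred as neighbours. EARLI1 (chr4:7406065-7406994), AT4G12490 (chr4:7409621-7410406) and AT4G12500 (chr4:7413990-7414955) lie on the minus strand of TAIR10.1 chromosome 4, each separated from the next by 1 gene, and the coding sequences of AT4G12490 and AT4G12500 matched at 89.9% of aligned bases. EARLI1 was at 33.1 and 47.8 in EYFP, 62.8 and 122 in IMA1 OE, 103 and 96.4 in IMA3 OE and 79.5 and 130.4 RPKM in opt3-2 on control medium. AT4G12490 was at 6.53 and 5.2 in EYFP, 7.49 and 15.7 in IMA1 OE, 28.6 and 11.7 in IMA3 OE and 24.4 and 18.4 RPKM in opt3-2. AT4G12500 was at 2.11 and 1.76 RPKM in EYFP and 10.6 and 7.6 RPKM in opt3-2. All 3 were above EYFP in the control libraries of the other lines, and the replicates of AT4G12490 differed by more than 2-fold in both IMA lines. Other neighbouring members were GSTU1 and GSTU4, the pathogenesis-related genes AT2G19970 and PR-1-LIKE, and IGMT3 and VTL1. Protease inhibitor genes (KTI1, UPI and AT2G38870, 3 of 23 expressed) and glutathione S-transferase genes (GSTF2, GSTU1 and GSTU4, 3 of 40) were also present. Heat shock or chaperone genes numbered 0 of 183 and kinase genes 2 of 936, beside 0.605% of all expressed loci.

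PYK10, the major beta-glucosidase of root endoplasmic reticulum bodies, was the most abundant member. It was at 2082 and 2082 RPKM in EYFP and 4123 and 4123 RPKM in opt3-2 control roots. The replicates of each group were equal to the last digit, which no other member showed. PYK10 ranked 5 and 6 in the EYFP libraries and 1 in both opt3-2 libraries. Its replicates therefore say nothing about its spread, its level and ratio (1.98) rest on these equal values, and how they arose was not tested. On deficient medium it was at 2382 and 1699 RPKM in EYFP and 3026 and 3892 RPKM in opt3-2.

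Other members encode enzymes of detoxification and indole metabolism. GSTF2, a glutathione S-transferase, was at 94.8 and 81.3 in EYFP, 182 and 169.8 in IMA1 OE, 166 and 162 in IMA3 OE and 231 and 259 RPKM in opt3-2 on control medium, and at 79.7 and 75.9 RPKM in EYFP and 98.7 and 93.6 RPKM in opt3-2 on deficient medium. Its coding sequence matched GSTF3 at 94.5% of bases, so some reads may belong to that gene. The order on control medium was EYFP, IMA3 OE, IMA1 OE and opt3-2, with the first separated from the others and the IMA lines adjacent. PRXCB, an apoplastic peroxidase, was at 179 and 196 RPKM in EYFP and 348 and 362 RPKM in opt3-2, and AER, an alkenal reductase that detoxifies products of lipid peroxidation, at 5.33 and 4.55 RPKM and 10.8 and 10.8 RPKM. The coding sequence of PRXCB matched PRXCA at 90.4% of aligned bases, and that of AER matched AT5G16980 at 93.6%. Some reads of both may belong to those genes. MYB51, a transcription factor of indole glucosinolate synthesis, was at 8.21 and 8.53 RPKM in EYFP and 12.8 and 12.9 RPKM in opt3-2 and was the 1 member on a list of camalexin and indole defence genes. IGMT3, a methyltransferase of indole glucosinolates, was at 19.3 and 18.8 RPKM and 31.4 and 28.4 RPKM, and its coding sequence matched IGMT2 at 97.4% of bases, which leaves its reads uncertain. Lists of salicylate, jasmonate, ethylene, heat shock, abscisic acid, phosphate starvation and sulfate genes held no member, but with 5 to 10 expressed genes each and 0.605% of all expressed loci being members, an empty list is near that share.

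DIN11 had the largest ratio of the set. This dioxygenase gene, known to be induced in darkness and by sugar shortage, was at 0.18 and 0.15 in EYFP, 0.91 and 1.07 in IMA1 OE, 1.6 and 2.1 in IMA3 OE and 6.75 and 5.99 RPKM in opt3-2 on control medium. On deficient medium it was at 0.14 and 0.13 RPKM in EYFP and 0.2 and 0.25 RPKM in opt3-2. DIN11 was near 0 in EYFP, and its ratio of 38.6 rests on that low level. GAD4, a glutamate decarboxylase that makes gamma-aminobutyrate, was at 0.18 and 0.41 RPKM in EYFP, 3.11 and 3.66 RPKM in opt3-2 on control medium and 0.4 and 0.57 RPKM in opt3-2 on deficient medium. Its coding sequence matched GAD3 at 90.7% of aligned bases, so some reads may belong to that gene. ASN1, a dark-induced asparagine synthetase, was at 12.7 and 22.6 in EYFP, 19.8 and 37.9 in IMA1 OE, 46 and 45.1 in IMA3 OE and 36.2 and 53 RPKM in opt3-2. GAT1_2.1, a glutamine amidotransferase-like gene, was at 0.99 and 2.03 RPKM in EYFP and 4.4 and 8.15 RPKM in opt3-2. These genes were higher in opt3-2 than in EYFP with iron, as the rule required. The opt3-2 libraries without iron were lower than with it for DIN11, GAD4 and GAT1_2.1, while those of ASN1 overlapped. The transporter genes DUR3 (urea), NRT1.8 (nitrate retrieval from the xylem) and UMAMIT29 and UMAMIT33 (of a family that exports amino acids) had ratios of 1.65, 1.53, 1.60 and 2.34. The transcription factor gene bZIP1, which acts in the response to low energy, had a ratio of 1.51, and the overlapping locus AT5G49448 carried the same values in every library and is not a separate observation.

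Over both media, 17 of 104 members (16.3%) had all 12 root libraries of the other lines above all 4 EYFP root libraries, beside 30 of 17856 genes (0.168%); the rule used the EYFP and the opt3-2 control libraries, so that share is a description. AT2G05920, a subtilase (a secreted serine protease), was the clearest case. It was at 27.1 and 26.8 RPKM and 23.9 and 25.8 RPKM in EYFP roots on control and deficient medium, and between 141.7 and 165.3 RPKM in the 12 libraries of the other lines. Its level varied little between media within a line, and EYFP stood apart from the rest. In rosettes, which the rule did not use, EYFP was between 26.2 and 32.5 RPKM and the other 12 libraries between 54.0 and 76.8 RPKM, again without overlap. AT5G39120, a germin-like cupin, was between 0.37 and 0.91 RPKM in EYFP roots and between 1.22 and 5.72 RPKM in the others, but its coding sequence matched AT5G39150 at 98.0% of bases. The other members with this pattern included OSM34, EXT4, ChiC, GLP4 and SUS3.

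Setting the lines side by side, the values against EYFP share the same EYFP libraries on a medium and are no separate evidence. On control medium, 54 members had a ratio of at least 1.5 in IMA1 OE (median 1.52, background 1.36%) and 61 in IMA3 OE (median 1.57, background 1.7%). Of the members, 43 passed this ratio in both IMA lines, 11 in IMA1 OE only, 18 in IMA3 OE only and 32 in neither. On deficient medium, 31 members had a ratio of at least 1.5 in opt3-2 (median 1.22, background 0.857%), 37 in IMA1 OE (median 1.29, background 0.923%) and 44 in IMA3 OE (median 1.41, background 1.76%). The EYFP control libraries were chosen to be low, which raises the counts on control medium. The deficiency ceiling kept the EYFP deficient libraries low as well, which bears on the counts on deficient medium. Counts on both media are therefore a description, and the 2 media are not compared. In opt3-2 itself, deficient over control medium gave a ratio of at most 1/1.5 for 62 members, with a median of 0.627 and a background of 2.29%, and a ratio of at least 1.5 for 0. The rule chose members for high opt3-2 control libraries, so this lower level is in part fixed by the choice and is a description.

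The response of EYFP roots, limited by the rule to at most 1.1, divided the members. A ratio of at most 1/1.5 was found for 11 (background 1.35%): VTL1, VTL2, FER1, ZIP4, UMAMIT29, the glutamate receptor-like gene GLR2.3, EARLI1, AT4G33720 and the defensin-like genes AT2G36255, AT3G59930 and AT5G33355. A ratio between 0.9 and 1.1 was found for 46 and one in between for 47. The median ratio of these 11 over EYFP on control medium was 2.59 in opt3-2, 2.28 in IMA1 OE and 1.22 in IMA3 OE, with 8 and 4 of them past 1.5 in the IMA lines. For the other 93 members the medians were 1.78, 1.49 and 1.57, with 46 and 57 past 1.5. The opt3-2 ratio of deficient over control medium had a median of 0.185 in the 11 and 0.632 in the 93. The split used values of the same EYFP libraries and was not tested.

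The response to iron deficiency inside the IMA lines was tested, and its fold changes rest on libraries that the choice of members did not use. Each response joins 2 deposited tables through the same EYFP libraries, which cancel. The spread came from all 8 root groups, some of which the rule used, so these tests are not fully separate from the choice. The rule asked that EYFP and opt3-2 control replicates lie apart, which favours members with a small spread there. Their p-values may therefore be too low. Fewer members were called in IMA1 OE with the spread of the compared groups only. In IMA1 OE roots 16 of 104 members fell (background 0.165%) and 1 rose (background 0.953%). The median log2 fold change was -0.34 over members and -0.01 over all 20577 genes tested. The rule left out genes that rose past its ceiling in EYFP roots under deficiency. The counts of rising and falling members are therefore in part set by the choice, and their distance from the background is a description. With a replicate block more members were called. VTL2 was at 33.5 and 32.8 RPKM with iron and 2.5 and 3.49 RPKM without it, and fell (log2 fold change -3.21, SE 0.32, limma adjusted p = 0.000356). VTL1 was at 84.3 and 85.7 RPKM with iron and 15.3 and 15.3 RPKM without it, and fell (-2.38, SE 0.34, limma adjusted p = 0.00446). FER1 fell from 258 and 306 RPKM to 87.2 and 80.7 RPKM (-1.74, SE 0.25, limma adjusted p = 0.00432). Together with the vacuolar transporter genes this covers 3 of the 4 iron storage members, and VTL5, at 278 and 160.1 RPKM with iron and 109 and 63.5 RPKM without, did not pass (-1.32, SE 0.37, limma adjusted p = 0.213). FRD3 fell from 65.1 and 50.4 RPKM to 18.7 and 13 RPKM (-1.81, SE 0.20, limma adjusted p = 0.0006). ZIP4 fell from 14.5 and 14.9 RPKM to 4.32 and 4.48 RPKM (-1.57, SE 0.15, limma adjusted p = 0.000209), and ZIP1 fell from 8.72 and 9.68 RPKM to 4.18 and 4.09 RPKM (-1.0, SE 0.10, limma adjusted p = 0.000461). Both zinc transporter genes thus fell without overlap of their libraries. The defensin-like AT3G59930 fell from 427 and 346 RPKM to 99.3 and 77.3 RPKM (-2.12, SE 0.19, limma adjusted p = 0.000198), and so did AT5G33355 (-1.87), whose reads may be the same. GSTF2 (-0.64), IGMT3 (-1.01), UMAMIT29 (-1.13), DIN11 (-0.90), the cytochrome P450 gene CYP706A7 (-0.99), PRXCB (-0.57), AT4G01870 (-0.69) and AT3G20340 (-1.34) fell as well. The member that rose was NRT1.8, at 14.4 and 11.2 RPKM with iron and 21.2 and 18.6 RPKM without it (0.66, SE 0.13, limma adjusted p = 0.03). With 1 IMA1 OE library left out, 9 (without deficient replicate 1) to 11 (without control replicate 1) members were called, and FER1 lost its call without control replicate 2 (limma adjusted p = 0.0516). AT3G20340 (limma adjusted p up to 0.375), PRXCB (0.278), AT4G01870 (0.195), DIN11 (0.178) and IGMT3 (0.0985) lost theirs with any 1 of the 4 libraries left out. NRT1.8 lost its call without either deficient replicate or control replicate 2 (up to 0.311 by limma), CYP706A7 without deficient replicate 2 or control replicate 1 (0.219 and 0.242), and AT5G33355 without the same libraries (0.0750 and 0.0821). UMAMIT29 lost its call without deficient replicate 1 or control replicate 2 (0.119 and 0.113 by limma), and GSTF2 without deficient replicate 1 or control replicate 1 (0.0880 and 0.0714). VTL1, VTL2, ZIP4 and AT3G59930 kept theirs in all 11 alternatives, and FRD3 and ZIP1 in 10 of 11.

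In IMA3 OE roots 5 members fell (background 0.068%) and 0 rose, and a replicate block gave more calls. At an unadjusted limma p under 0.05, 27 were lower and 0 higher, beside 1207 of 20577 genes in either direction. The deficiency ceiling of the rule bears on these counts too, so their distance from the background is a description. DIN11 was at 1.6 and 2.1 RPKM with iron and 0.3 and 0.19 RPKM without it and fell (-1.61, SE 0.17, limma adjusted p = 0.000817). AT3G59930 fell from 288 and 277 RPKM to 96.5 and 98.4 RPKM (-1.46, SE 0.19, limma adjusted p = 0.00513). FER1 fell from 142 and 147 RPKM to 59.4 and 49.9 RPKM (-1.33, SE 0.25, limma adjusted p = 0.0407), as did FRD3 (-1.14) and AT4G01870 (-0.71), a gene of a tolB-like protein. VTL1 was at 28.5 and 32.1 RPKM with iron and 10.4 and 12.9 RPKM without it and did not pass (-1.23, SE 0.34, limma adjusted p = 0.271). VTL2, at 6.04 and 6.69 RPKM with iron and 2.09 and 2.66 RPKM without, did not pass either (-1.14, SE 0.32, limma adjusted p = 0.285). The difference between the responses of the IMA lines was not tested. One library of this comparison stood apart, as the values of IMA3 OE deficient replicate 2 summed to at least 740039 RPKM against at most 694963 RPKM in the other root libraries. Without it 1 member was called, as without either control replicate, and 4 were called without deficient replicate 1. DIN11 kept its call with each library left out, while FER1 (limma adjusted p up to 0.415), FRD3 (up to 0.251) and AT3G59930 (up to 0.0710) did not, nor did AT4G01870 (up to 0.291).

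**Figure D3:**
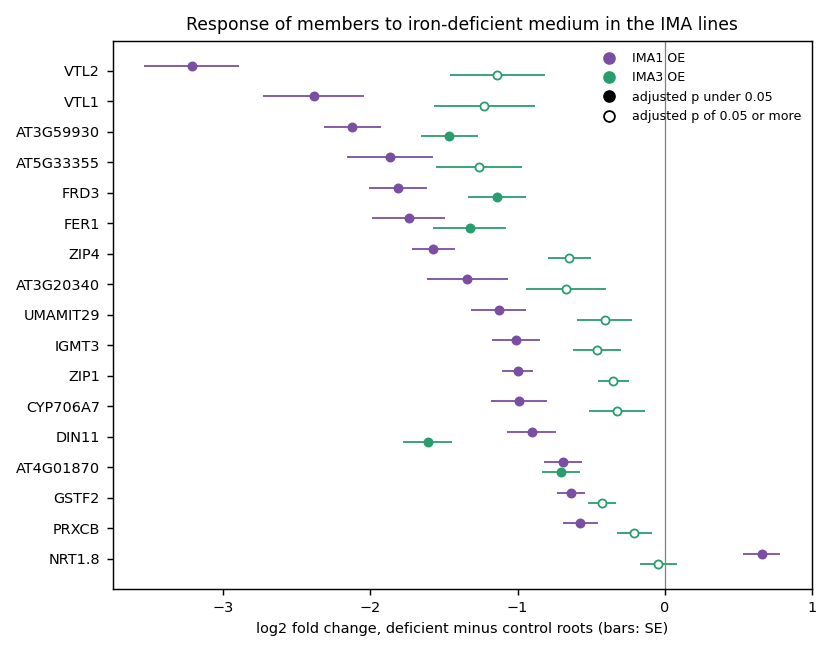
Log2 fold change (x axis, with SE as bars) between deficient and control roots for the 17 members that passed in IMA1 OE or IMA3 OE, filled where the limma adjusted p was under 0.05. All but NRT1.8 lie below 0 in IMA1 OE, and VTL2 is lowest at -3.21.

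On deficient medium opt3-2 roots were also compared with IMA1 OE and IMA3 OE roots, again with fold changes from libraries that did not choose the members. The spread again came from all 8 root groups, some of which the rule used, so p-values of members may again be too low. FER1 was at 23.5 and 18.25 RPKM in opt3-2 and 87.2 and 80.7 RPKM in IMA1 OE, and was lower in opt3-2 (-1.99, SE 0.25, limma adjusted p = 0.00643). It was the 1 member of 104 called lower against IMA1 OE (background 0.0535%), and 0 were called higher by limma. At an unadjusted limma p under 0.05, 7 were higher and 8 lower, beside 857 of 20577 genes in either direction. Against IMA3 OE, 0 members were called by limma (background of lower genes 0.0778%). At an unadjusted limma p under 0.05, 1 was higher and 15 lower, beside 1391 of 20577 genes in either direction. FER1 was nearest, at 59.4 and 49.9 RPKM in IMA3 OE (-1.44, SE 0.25, limma adjusted p = 0.062). The call of FER1 against IMA1 OE ended without opt3-2 replicate 2 (limma adjusted p = 0.105) and without either IMA1 OE replicate (0.0888 and 0.0880). The median log2 difference over members was 0.01 against IMA1 OE and -0.13 against IMA3 OE.

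Rosettes gave the members in a tissue that the rule did not use. Of 104 members 74 passed a mean of 0.5 RPKM over the 16 rosette libraries, and 30 were not tested. Among those left out were AT2G36255, AT1G34047, AT5G33355 and AT4G33720, near 0 in rosettes. On control medium, without a replicate block, 1 member was called higher in opt3-2 than in EYFP (background 0.143%) and 0 lower. With the block more members were called, as given in the closing section, so the count of 1 depends on leaving it out. The 1 member was DUR3, a urea transporter gene, at 2.46 and 2.85 RPKM in EYFP and 7.97 and 9.75 RPKM in opt3-2 (1.57, SE 0.22, limma adjusted p = 0.0313). The call ended without opt3-2 replicate 2 or either EYFP replicate (limma adjusted p = 0.417, 0.227 and 0.123) and with the unadjusted p-values that the authors deposited, after adjustment over all genes (1). At an unadjusted limma p under 0.05, 26 of 74 members were higher and 0 lower, beside 1575 of 19521 genes in either direction. The median log2 fold change was 0.70 over the 74 members, of which 57 were above 0, and -0.05 over all 19521 genes tested. FER1 was at 55.9 and 277 RPKM in EYFP and 950.3 and 1069.7 RPKM in opt3-2, without overlap, and did not pass (3.01, SE 0.62, limma adjusted p = 0.111). AT2G05920 was at 31.7 and 26.9 RPKM in EYFP and 63.3 and 56.5 RPKM in opt3-2, just short of the threshold (1.02, SE 0.17, limma adjusted p = 0.056).

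Rosette replicates of a group differed in many members. In opt3-2 control rosettes, 31 of 62 members with at least 3 RPKM (50%) were at least 1.5 times as high in replicate 2 as in replicate 1, beside 7.19% of all such genes, and 2 were as much lower. The uncharacterized AT2G18690 was at 13.8 and 61.4 RPKM there, GSTU4 at 6.53 and 27.2 RPKM and WRKY75, a transcription factor gene of senescence and phosphate starvation, at 1.13 and 6.45 RPKM. In EYFP control rosettes 18 of 45 members (40%) were at least 1.5 times as high in replicate 2, beside 5.91% of all genes. IMA1 OE went the other way, with 22 of 61 members (36.1%) at least 1.5 times as high in replicate 1, beside 3.88%. The median log2 fold change of members in opt3-2 was 0.36 without opt3-2 replicate 2, 0.83 without opt3-2 replicate 1, 0.43 without EYFP replicate 1 and 1.0 without EYFP replicate 2.

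**Figure D4:**
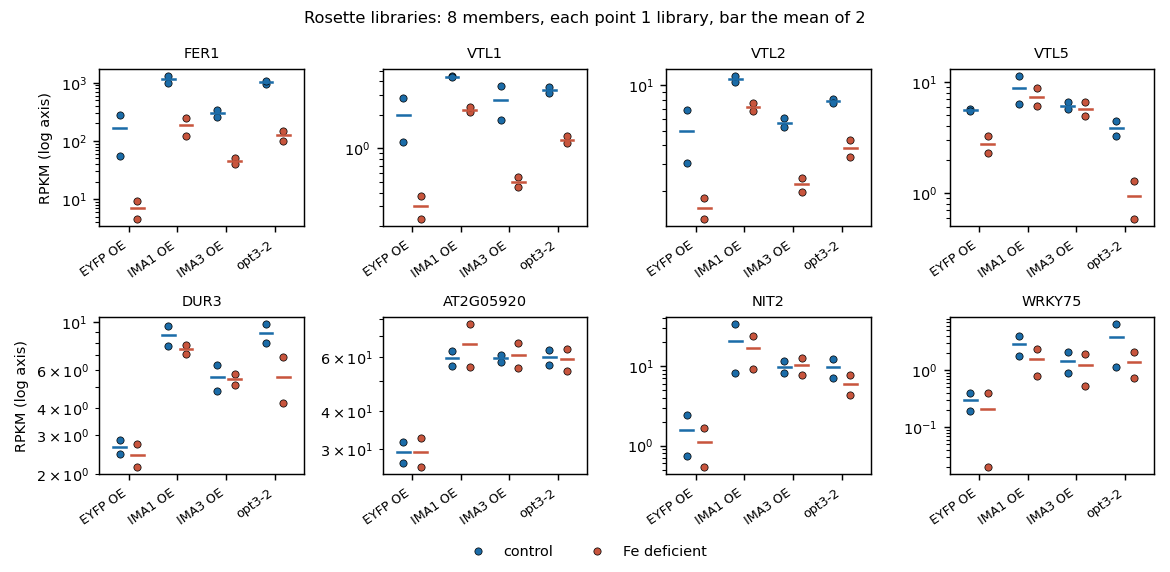
RPKM (log axis) of 8 members in all 16 rosette libraries, by line (x axis) and medium (colour), with 1 point for each library and a bar at the mean. DUR3 and AT2G05920 lie above EYFP in all 12 libraries of the other lines, whereas VTL5 is lower in opt3-2 than in EYFP on each medium.

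On deficient medium 0 of 74 members were called between opt3-2 and EYFP rosettes by limma (background of higher genes 0.0205%), with a median of 0.32. At an unadjusted limma p under 0.05, 12 were higher and 3 lower, beside 652 of 19521 genes in either direction. FER1 was at 9.34 and 4.5 RPKM in EYFP and 149 and 101 RPKM in opt3-2 and did not pass (4.09, SE 0.62, limma adjusted p = 0.073). In EYFP rosettes FER1 was at 55.9 and 277 RPKM with iron and 9.34 and 4.5 RPKM without it, and was the 1 member called lower under deficiency (-4.19, SE 0.62, limma adjusted p = 0.0162, background 0.164%). Its call ended without deficient replicate 2 (limma adjusted p = 0.226) or control replicate 2 (0.0667). VTL1 and VTL2 had log2 fold changes of -1.48 and -1.30 there and did not pass. VTL5 was at 5.73 and 5.43 RPKM in EYFP and 4.41 and 3.23 RPKM in opt3-2 with iron, and at 3.23 and 2.3 RPKM and 1.28 and 0.58 RPKM without it. This member thus lay below EYFP in opt3-2 rosettes on both media, whereas it lay above in control roots; the difference did not pass on deficient medium (-1.28, SE 0.31, limma adjusted p = 0.591).

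In IMA1 OE control rosettes DUR3, at 9.54 and 7.77 RPKM, was again the 1 member called higher than EYFP (1.51, SE 0.22, limma adjusted p = 0.0471, background 0.0205%), with a median of 0.62 over members. Its call ended with any 1 of the 4 libraries left out (limma adjusted p between 0.0889 and 0.424). These comparisons share the EYFP control rosettes with that of opt3-2. A replicate block gave more calls here as well. In IMA3 OE control rosettes 0 members were called by limma (background 0%), with a median of 0.45. At an unadjusted limma p under 0.05, 8 were higher and 0 lower there, beside 622 of 19521 genes in either direction. DUR3 was at 4.82 and 6.3 RPKM there (0.94, SE 0.22, limma adjusted p = 1), still above every EYFP rosette library. NIT2, a nitrilase gene, was at 0.73 and 2.44 RPKM in EYFP control rosettes, 33.6 and 8.19 RPKM in IMA1 OE, 8.16 and 11.5 RPKM in IMA3 OE and 7.05 and 12.4 RPKM in opt3-2. It was above EYFP in every line but passed in none, and its coding sequence matched NIT1 at 91.2% of bases.

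**Figure D5:**
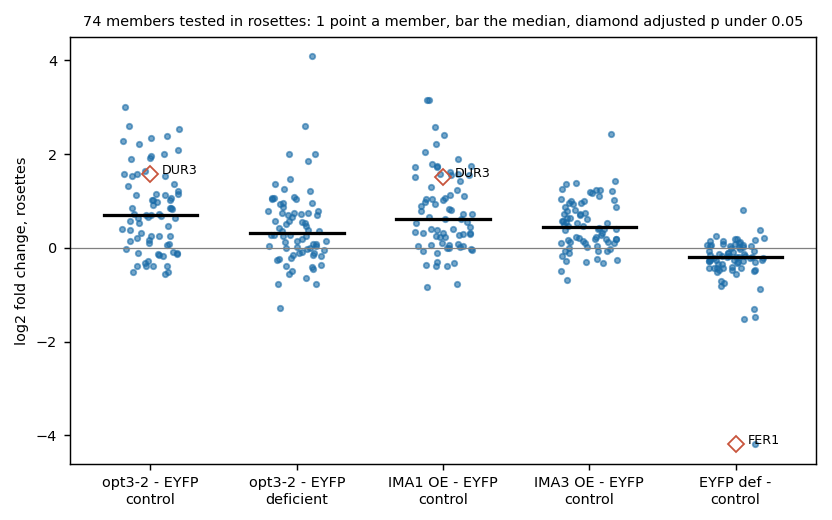
Log2 fold change of the 74 members tested in rosettes (1 point each) in 5 comparisons, with the median as a bar and an open diamond for limma adjusted p under 0.05. The medians are 0.70, 0.32, 0.62, 0.45 and -0.20 from left to right.

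Start regions were available for 103 members. The W-box core TTGAC, to which WRKY factors bind, was found on either strand in 64.1% of them and in 50.5% of 27443 windows of all genes. The other motifs searched on both strands were CACGTG (4.85% and 7.68%), TGACG (28.2% and 23.1%), GCCGCC (5.83% and 2.57%) and GAANNTTC (14.6% and 11.6%). Matches are a description of letters within the 300-base windows.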

How the data were processed

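The authors deposited 26 tables of 33611 features (33607 genes and 4 constructs), each setting 2 groups side by side. The deposited levels were taken as RPKM from their values, since no header names the unit. Per the file headers, further columns give a log2 fold change and an unadjusted p-value by the authors. Per the submitters' processing notes, the TAIR10 genome was used, and tools include limma 3.26.9, edgeR 3.12.1, Bowtie2 2.0.6, Trimmomatic 0.35 and bcl2fastq 1.8.4. Value distributions were nearly equal among the libraries of a table, so levels of different lines, taken from different tables, are set across tables. Read counts were not given, the depth is unknown, and precision rests on the spread between 2 libraries a group.

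Members were chosen from 2 tables. The members and gene lists were chosen with earlier results of these data known. Tests used log2(RPKM + 0.5), which understates changes of low genes, for genes whose tissue mean reached 0.5 RPKM. Fold changes came from the table of the groups, or from 2 tables sharing an EYFP group. The residual spread came from all 8 groups of a tissue (8 degrees of freedom), moderated with a trend by squeezeVar of limma 3.58.1 in R 4.3.3 with version 1.17.8 of data.table. P-values are 2-sided, with Benjamini-Hochberg adjustment over all genes tested and calls under 0.05. An exact permutation test of 2 against 2 libraries cannot go below 0.333. The pipeline was tested on simulated data. Contrasts sharing a library with the choice of members got ratios only, with no test, beside genes with at least 3 RPKM in either group.

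Named genes were the 10 members with the largest ratios, the 10 most abundant, members on 23 lists or in 25 families, up to 10 called members a direction, and those nearest the thresholds; AT2G18690, GSTU4 and WRKY75 in rosettes and DUR3, ASN1, AER and NIT2 were taken up after their values were seen. Start regions and coding sequences came from RefSeq (TAIR10.1); coding sequences were aligned with blastn 2.17.0, with matches of at least 85% identity over at least 50% of the query. Other steps used Python 3.11.15, pandas 2.3.3, numpy 2.4.6 and matplotlib 3.10.9. Alternatives were other pseudocounts (0.1 and 1), filters, sources of spread, a replicate block, left-out libraries, the authors' p-values and other member thresholds.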

Additional observations from a re-analysis of the deposited data

Results flagged for a closer look

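Some members lay on opposite sides of a comparison in 2 settings, with every library of one group above those of the other in 1 setting and below them in the other. The differences were not tested, and the direction in control roots was fixed by the choice of members. With 2 libraries a group such an order is common. Of genes with at least 3 RPKM in either group, 18.7% had both opt3-2 root libraries above both EYFP libraries on control medium and 15.9% on deficient medium. On deficient medium 3 of 104 members had both opt3-2 root libraries below both EYFP libraries. Ratios of opt3-2 over EYFP on control medium were above 1.5 in roots and below 1 in rosettes for VTL5 (0.685 in rosettes), AT2G19970 (0.615), AT3G21351 (0.609), AT5G26280 (0.740), bZIP1 (0.744) and AT1G21010 (0.913). In roots, members above EYFP on control medium and below it on deficient medium were FER1 (0.666 on deficient medium), the citrate transporter gene FRD3 (0.761) and the lipase gene PLA2A (0.699). On deficient medium, FER1 was at 0.666 in roots and 17.5 in rosettes, and FRD3 at 0.761 and 1.64. The other way round were PYK10 (1.84 in roots and 0.744 in rosettes), AT2G19970 (1.82 and 0.492), AT1G21010 (1.16 and 0.766) and bZIP1 (1.17 and 0.889). The response of EYFP to deficiency was opposite for AT1G21010, at 0.915 in roots and 1.19 in rosettes.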

How the results depend on the processing

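Alternatives were run for the members called, and their fold changes kept their direction in all of them. Of 92 alternatives that ended the call of a single member, those that leave out a library have fewer samples; for the others the cause was not tested. Counts of members called moved by over 1.5 times as follows. In opt3-2 over EYFP control rosettes (1 in the report) the count was 0 without a filter, with the spread of the compared groups only and with a replicate threshold of 1.5 (lowest opt3-2 over highest EYFP library) for members, 8 with the authors' p-values and 0 to 4 with 1 library left out. In deficient rosettes (0) it was 3 with the authors' p-values and 0 to 0 with 1 library left out. For the response of EYFP rosettes (1) it was 0 without a filter, with the compared groups only and with the threshold of 1.5, and 0 to 3 with 1 library left out. In IMA1 OE rosettes (1) it was 0 with a pseudocount of 1, without a filter, with the compared groups only and with the threshold of 1.5, 7 with the authors' p-values and 0 to 2 with 1 library left out. In IMA3 OE rosettes (0) it was 1 with the authors' p-values and 0 to 0 with 1 library left out. Against IMA1 OE in deficient roots (1) it was 0 without a filter and with the threshold of 1.5, and 0 to 2 with 1 library left out; against IMA3 OE (0) it was 0 to 1. For the response of IMA1 OE roots (17) it was 9 without a filter, 6 with the compared groups only, 11 with the threshold of 1.5 and 9 to 11 with 1 library left out. The threshold of 1.5 leaves a smaller set of members, so its counts do not have the same base. For IMA3 OE roots (5) it was 2 without a filter and 1 to 4 with 1 library left out.

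Replicate numbers in the labels do not name a shared culture. Same-numbered libraries deviated together with a correlation over 0.1 in 26 of 28 pairs of root groups and 27 of 28 pairs of rosette groups. The median correlation was 0.233 in roots and 0.369 in rosettes. Since not every pair passed, the replicate block was kept as an alternative. The main counts therefore leave out a deviation that most groups share, and they depend on this choice. With a replicate block the counts were 10 in opt3-2 control rosettes, 1 in deficient rosettes, 1 for the response of EYFP rosettes, 5 in IMA1 OE rosettes, 1 in IMA3 OE rosettes, 3 and 2 for opt3-2 against IMA1 OE and IMA3 OE roots, 25 for the response of IMA1 OE roots and 7 for that of IMA3 OE roots.

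The following alternatives were chosen after seeing the data. The set itself held 55 members with a replicate threshold of 1.5, 83 with a ceiling of 1.0, and between 107 and 197 with 1 library left out, the highest without opt3-2 control replicate 2. Of the 104 members, 79 (without EYFP control replicate 2) to 96 (without opt3-2 control replicate 2) remained. With 1 library left out, members past a ratio of 1.5 numbered 28 to 39 for opt3-2 on deficient medium. They numbered 48 to 62 for IMA1 OE and 53 to 59 for IMA3 OE on control medium, and 31 to 41 and 39 to 53 on deficient medium. Among the 55 members of the replicate threshold of 1.5, 39 and 27 passed this ratio in IMA3 OE on control and deficient medium.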
